A study of Mus musculus with 11 samples.

Results

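Genes of the matrix metalloproteinase (MMP), ADAMTS, ADAMTS-like and TIMP families were examined in whole-kidney RNA. They were chosen by symbol alone, as Mmp, Adamts or Adamtsl followed by a number, or Timp1 to Timp4, with at least 10 reads over all libraries. Of 25677 genes listed, 48 carried such a symbol and 45 passed the minimum, namely 19 MMP, 17 ADAMTS, 5 ADAMTS-like and 4 TIMP genes. Adamts18 with 6 reads, Mmp20 with 3 and Adamts19 with 1 fell under it, while Mmp24 with 23 reads, Adamts13 with 35 and Adamts17 with 42 were the lowest inside it. The kidneys came from 3 control mice (Ctr, genotype C57B6, given as C57BL/6J in the methods), 4 MRL/lpr mice left untreated (Lpr) and 4 of the same strain given DNase I into the peritoneum every day from week 17 (DNase), all female and all taken at 21 weeks. MRL/lpr mice carry the lpr mutation of Fas on the MRL background, and their kidneys become inflamed in a way that resembles human lupus nephritis. DNase I digests DNA outside cells. Both MRL/lpr groups differ from Ctr in strain as well as in disease, and these cannot be told apart. DNase against Lpr is the comparison within 1 strain.

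MMPs are secreted or membrane-bound zinc proteases that cut collagens, elastin, laminins and many signalling proteins, and they are made as inactive proenzymes. ADAMTS proteases carry thrombospondin repeats and cut proteoglycans, procollagens or von Willebrand factor, whereas the ADAMTS-like proteins keep the repeats but lack the catalytic part. TIMPs bind the active site of these enzymes and block them, and in the kidney the balance of proteases and TIMPs bears on turnover of the glomerular basement membrane and on interstitial scarring.

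Each kidney gave 1 library, with between 33469858 and 38460873 reads counted on genes. Levels are given as CPM, counts per 1e6 reads after TMM scaling over the 11 libraries, and FPKM, which also divides by gene length, is used only to compare genes with each other. The libraries carried kidney RNA, since the summed CPM of 6 proximal tubule markers lay between 5108 and 11877 in all 11. The library Lpr 3 stood apart. Its log2 level fell by 0.393 with each doubling of a gene's length, measured against the average library, where the other 10 lay between -0.0433 and 0.0775, so results that rest on it are given with and without it. Of markers for other cells, those called higher in Lpr and in DNase against Ctr were 8 of 8 and 8 of 8 for T cells, 9 and 10 of 10 for macrophages, 5 of 8 and 7 of 7 for B and plasma cells, 2 and 3 of 7 for neutrophils and 3 and 3 of 6 for injured tubules, where 7.27% and 13.1% of all genes were. Striated muscle had 6 of 6 called lower in DNase and 0 of 6 in Lpr, and podocytes had 2 higher and 1 lower of 6 in DNase. In each of the lists for fibroblasts, smooth muscle, endothelium, proximal tubule, loop and distal tubule, collecting duct and fat, at most 2 markers were called in a comparison. In whole tissue, fewer cells of a type and less RNA per cell cannot be told apart.

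Of the 45 genes, 7 lie in 1 cluster on chromosome 9 (chr9:7272514-7699585, mouse GRCm38, 427 kb), in the order Mmp13, Mmp12, Mmp3, Mmp10, Mmp8, Mmp27 and Mmp7, with Mmp20 also inside it. The sequences before their start sites are shown because the AP-1 motif TGANTCA, searched on both strands, was found only in this cluster among the 31 members with a RefSeq promoter in the reference table. It stood in the 250 bases before a start of 5 of the 31, which were Mmp3, Mmp7, Mmp10, Mmp12 and Mmp13, against 7.82% of all 27025 genes with a promoter in the table. AP-1 is the pair of Fos and Jun proteins that many growth factor and cytokine signals reach. The motif began 46 bases before the start in Mmp3, 63 in Mmp10 and 35 in Mmp13. Mmp7 and Mmp12 each have 2 annotated starts. It began 63 bases before the first in Mmp7 and 44 before the second in Mmp12, with no match before the other start of either gene. A match is only a match of letters. The 250 bases of RefSeq sequence (GRCm38.p6, plus strand, 5′ to 3′) before the start of 4 of them follow, with the motif in capitals.
Mmp13, chr9:7272264-7272513: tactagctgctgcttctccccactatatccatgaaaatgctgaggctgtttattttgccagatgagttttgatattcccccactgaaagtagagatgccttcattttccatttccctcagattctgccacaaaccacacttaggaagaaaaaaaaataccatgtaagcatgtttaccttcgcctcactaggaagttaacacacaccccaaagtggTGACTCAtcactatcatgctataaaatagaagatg
Mmp3, chr9:7445572-7445821: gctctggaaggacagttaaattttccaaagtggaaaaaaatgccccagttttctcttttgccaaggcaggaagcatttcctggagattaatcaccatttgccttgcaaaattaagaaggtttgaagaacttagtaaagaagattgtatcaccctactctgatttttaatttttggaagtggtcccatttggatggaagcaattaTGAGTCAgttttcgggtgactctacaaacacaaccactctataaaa
Mmp10, chr9:7502092-7502341: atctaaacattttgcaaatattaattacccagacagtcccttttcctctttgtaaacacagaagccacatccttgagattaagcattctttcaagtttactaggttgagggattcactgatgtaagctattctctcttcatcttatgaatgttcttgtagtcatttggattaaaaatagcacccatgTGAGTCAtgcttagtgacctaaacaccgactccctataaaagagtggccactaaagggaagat
Mmp7, chr9:7691840-7692089: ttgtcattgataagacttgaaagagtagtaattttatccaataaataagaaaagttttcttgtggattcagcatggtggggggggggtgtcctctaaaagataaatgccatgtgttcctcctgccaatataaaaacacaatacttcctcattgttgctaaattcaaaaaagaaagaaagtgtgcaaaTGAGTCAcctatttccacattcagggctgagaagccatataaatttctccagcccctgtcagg

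The 4 sequences also hold TATAAA, as do the upstream sequences of Adamts1 and Adamtsl2 and those of 14.3% of all genes. The 250 bases before Mmp14, which lies apart from the cluster (chr14:54431598-54442456), held neither AP-1 nor TATAAA, and they were richer in GC than the 4 shown, with 55.2% against 37.2% to 40.4%.

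In Ctr the members spanned a wide range of levels per length. Timp3, the inhibitor that stays bound to the matrix, led with a mean of 432 FPKM (413 to 444), followed by Timp2 at 27.2 (21.9 to 30.5) and by Adamts1, which cuts aggrecan and versican, at 7.51 (5.91 to 10.6). Mmp14, the membrane-anchored collagenase that also activates the Mmp2 proenzyme, came next at 5.00 FPKM. Adamtsl2 at 4.89, Mmp2 at 3.61, Mmp11 at 3.39 and Mmp23 at 2.83 followed, and from Mmp14 to Mmp23 each gene overlapped the next in this order. In all, 17 of 45 members reached a mean of 1 FPKM in Ctr. Mmp10 and Mmp24 had 0 reads in all 3 Ctr kidneys. Timp3 made up between 81.0% (Lpr 3) and 95.2% (Ctr 2) of the summed TIMP FPKM of a kidney.

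**Figure D1:**
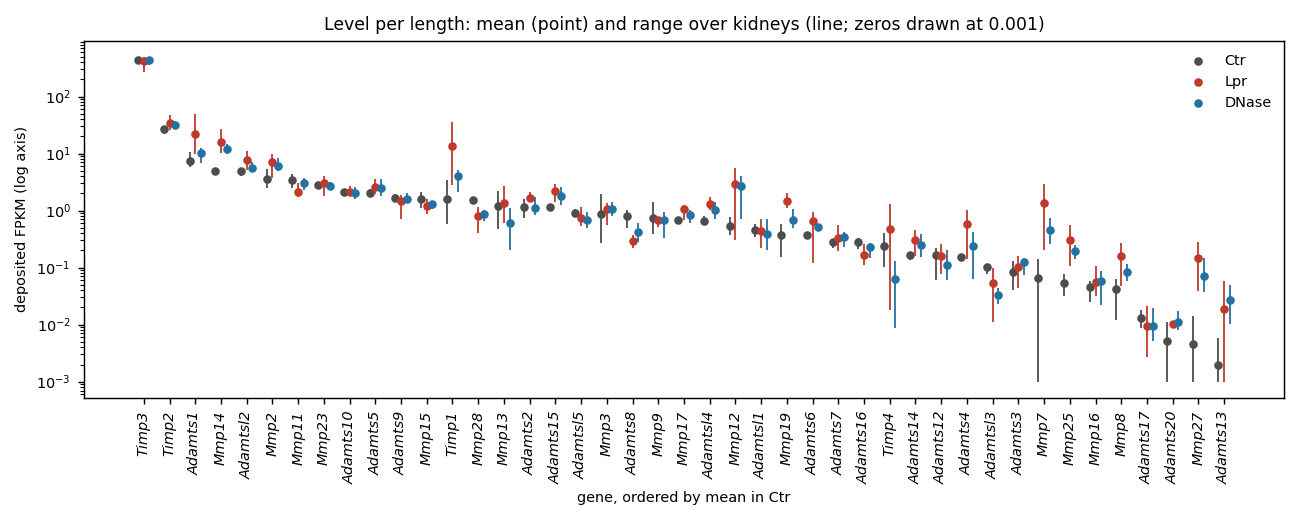
Deposited FPKM (log axis) of the 43 members with reads in Ctr, ordered by the Ctr mean, with the mean of each group as a point and the range over its kidneys as a line. Timp3 lies far above all others in the 3 groups, and Mmp7 and Timp4 have wide ranges over the Lpr kidneys.

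For the comparisons, 37 of the 45 members passed the filter on low counts in each of the 3 pairs. A member that passed only through the group where it is high had to differ, so counts over the 37 are descriptions. A gene was called where edgeR's quasi-likelihood test on the kidneys of both groups gave an adjusted p (Benjamini-Hochberg, over all genes tested) under 0.05. Reads of genes that share exon bases on opposite strands cannot be told apart unless counting used the strand, and whether it did is not given in the sources used here. In GENCODE vM21, Mmp19 shares 789 of its 3533 exon bases with Tmem198b, Mmp28 shares 466 of 3874 with 1700020L24Rik, Adamts8 shares 489 of 4613 with Gm29724 and Timp3 shares 1733 of 8144 with Syn3. Shared parts of 90 to 157 bases were found in Mmp7, Mmp12 and Timp4, and Adamts4, Adamts7, Adamts9, Mmp11 and Mmp24 also share bases with another gene.

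Between Lpr and Ctr, Mmp14 and Mmp19 rose and Adamts8 fell. These 3 of 37 members (8.11%) compare with 10.2% of all 16074 genes tested. In each direction the share was 5.41% of members against 7.27% of genes for higher values and 2.7% against 2.92% for lower ones. With the limit of an absolute log2 fold change above 2 added to the edgeR test, 0 members were called, against 4.65% of genes higher and 1.13% lower. The study set this limit with DESeq2, and that pairing was not counted here. At an unadjusted p under 0.05 there were 14 of 37, of which 11 were higher, against 21.4% of all genes. The median log2 fold change was 0.28 over the members and 0.03 over all genes, and 24 members were higher and 13 lower, where 52.5% of all genes were higher. In 7 members every Lpr kidney lay above every Ctr kidney (Mmp7, Mmp14, Mmp17, Mmp19, Mmp25, Adamts15 and Adamtsl4; 18.9% against 14.4% of genes), and in 2 every Lpr kidney lay below (Mmp28 and Adamts8; 5.41% against 11.2%). The count moved with single libraries, and so did the share of all genes called. It was 0 without Ctr 1 (5.2% of genes), 1 without Ctr 2 (5.54%) and 1 without Ctr 3 (5.58%). It was 5 without Lpr 4 (9.37%) and 9 without Lpr 3 (17.8%), the last adding Mmp17, Mmp25, Mmp28, Adamts6, Adamts15 and Adamtsl4. The members' share lay below that of all genes in the main test and above it in some alternatives. It was 25% (9 of 36) against 17.8% of genes without Lpr 3, 28.9% (13 of 45) against 13.1% with DESeq2 and 22.5% (9 of 40) against 15.5% in 1 fit over all 11 libraries. Beside the 3 of the main test, DESeq2 called Mmp7, Mmp10, Mmp12, Mmp25, Mmp27, Adamts1, Adamts4, Adamtsl4 and Timp1 higher and Mmp28 lower.

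Between DNase and Ctr, Mmp7, Mmp12, Mmp14 and Mmp25 rose and Mmp28 and Adamtsl3 fell. These 6 of 37 (16.2%) compare with 21.7% of 16100 genes, as 10.8% against 13.1% higher and 5.41% against 8.61% lower. Mmp7 and Mmp12 also passed the limit on fold change (5.41% against 4.56%). Of the called members, Mmp7 and Mmp25 passed the filter on low counts only through DNase, with 6, 0 and 2 and with 9, 12 and 5 reads in Ctr. Adamtsl3 passed it only through Ctr, with 6, 10, 8 and 13 reads in DNase. A difference in these members was favoured by the filter, so their calls and adjusted p are descriptions. The median log2 fold change was 0.14 over the members and 0.002 over all genes, with 20 higher and 17 lower. Every DNase kidney lay above every Ctr kidney in Mmp7, Mmp14, Mmp25 and Adamts6 (10.8% against 18% of genes) and below in Mmp28 and Adamtsl3 (5.41% against 13.9%). In 1 fit over all 11 libraries only Mmp14 was called, 1 of 40 members (2.5%) against 11.4% of 16500 genes.

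Between DNase and Lpr, edgeR called 0 of 37 members and 0% of 15832 genes, and the smallest adjusted p among members was 0.82. In simulated counts this test recovered 18% of genes with a log2 change of 1, so changes of that size can be missed. DESeq2 called 0 of 45 members and 19 of 19659 genes. At an unadjusted p under 0.05 there were 5 members (13.5%), against 5.60% of all genes. All 5 were lower in DNase, where the background is 3.43%. They were Mmp19, Timp1, Adamts1, Adamts2 and Timp4, in order of p, and their adjusted p in edgeR ran from 0.82 to 0.854. The count moved with the kidneys used, given here with the share of all genes. It was 10 without Lpr 4 (9.29%), 7 without Lpr 3 (10.1%) and 4 without Lpr 2 (4.49%). It was 8 without DNase 2 (4.07%), 3 without DNase 4 (3.35%), 2 without DNase 1 (4.22%) and 2 without DNase 3 (3.84%). It was 9 with DESeq2 (6.88%) and 1 or 2 with limma on FPKM (4.92% to 5.26%). All members in these counts were lower in DNase, except for 1 of the 4 without Lpr 2. Of the 37 members, 28 were lower in DNase than in Lpr, where 47.1% of all genes were higher, and their median log2 fold change was -0.26 against -0.02. Cell markers moved too, with 0 of 8 higher for fibroblasts (median -0.60), 0 of 5 for smooth muscle (-1.08), 0 of 6 for injured tubules (-1.28) and 0 of 4 for fat (-2.03). The podocyte, proximal tubule, loop and distal tubule, and B and plasma cell lists had positive medians, 0.19 to 0.40, and the other lists negative ones. Their part in the members' values was not tested. Only Mmp19 had every DNase kidney below every Lpr kidney (2.7% against 1.87% of genes).

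**Figure D2:**
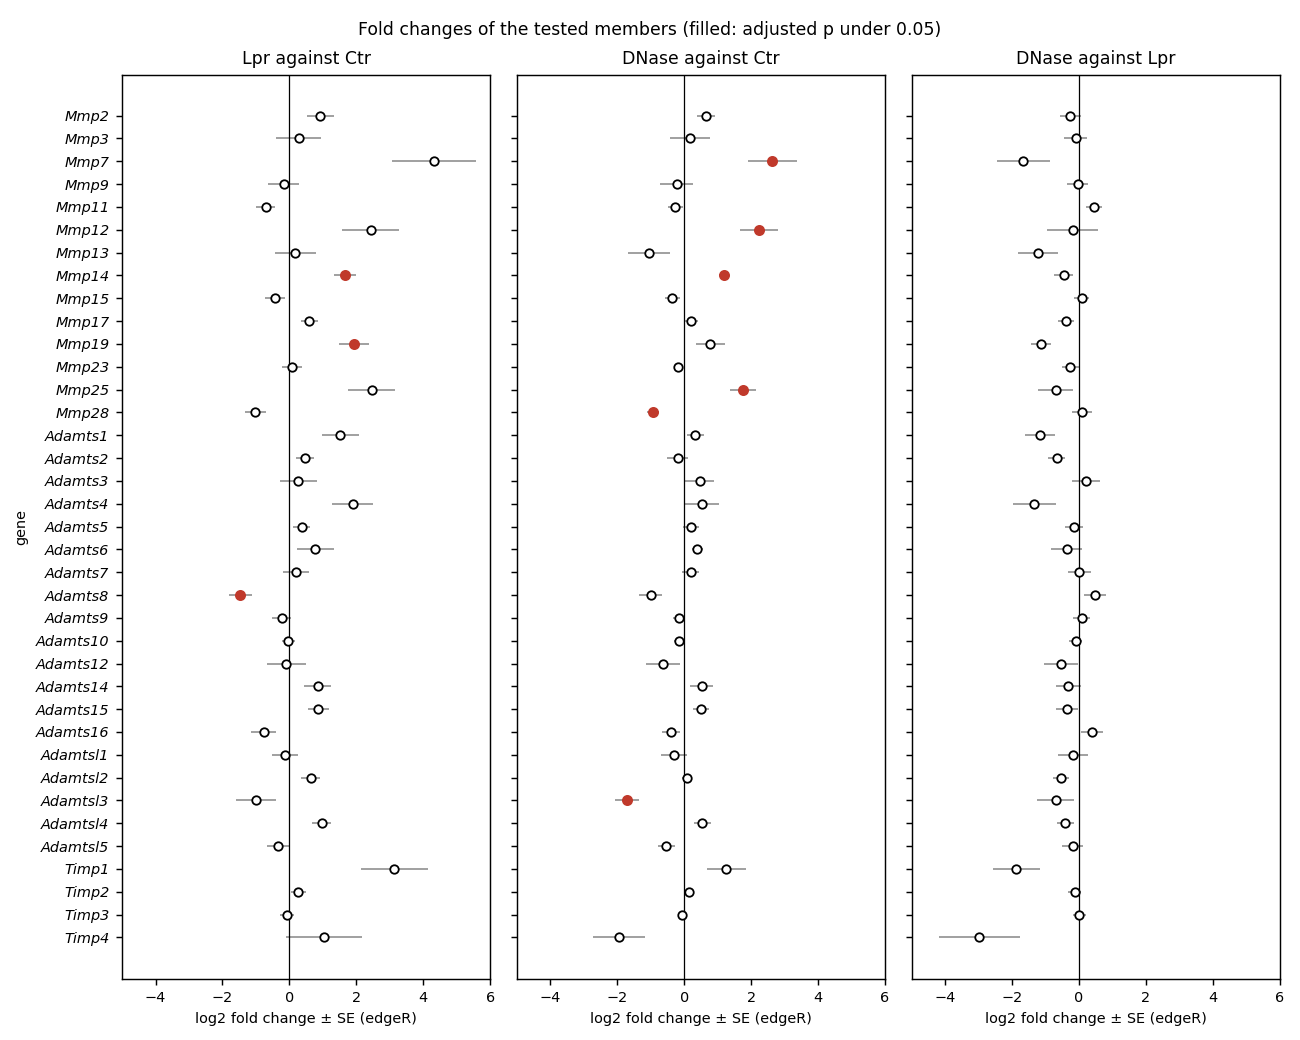
Log2 fold change ± SE (edgeR) of the 37 tested members in the 3 comparisons, with filled points at an adjusted p under 0.05. Mmp14 is filled in both comparisons with Ctr, and no point is filled in DNase against Lpr, where 28 of 37 points lie left of 0.

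Among the membrane-anchored MMPs, Mmp14 rose in both MRL/lpr groups. Mmp14 CPM were 21.2, 18.6 and 19.2 in Ctr 1 to 3, then 45.6, 98.1, 64.4 and 37.5 in Lpr 1 to 4 and 35.5, 53.2, 45.4 and 44.8 in DNase 1 to 4. The 3 Ctr kidneys lay close together and all 8 MRL/lpr kidneys lay above them, with Lpr 2 highest. The mean was 3.12 times that of Ctr in Lpr (log2 fold change 1.65 ± 0.33 SE, n = 4 and 3, edgeR adjusted p = 0.0148) and 2.27 times in DNase (1.19 ± 0.13, edgeR adjusted p = 0.000241). The DNase call held without any 1 kidney, while the Lpr call did not hold without Ctr 1, Ctr 2 or Ctr 3, with fold changes of 1.70, 1.61 and 1.63 and edgeR adjusted p of 0.0634, 0.0723 and 0.0659. DNase against Lpr gave -0.45 ± 0.28 (edgeR adjusted p = 0.854). Mmp14 held the largest part of the summed MMP FPKM in all 11 kidneys, from 18.9% in Ctr 1 to 44.4% in Lpr 2.

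Mmp25, a membrane-anchored MMP known from leukocytes, had CPM of 0.242, 0.383 and 0.15 in Ctr 1 to 3, 2.59, 1.96, 0.542 and 0.598 in Lpr 1 to 4 and 0.883, 1.11, 0.854 and 0.643 in DNase 1 to 4. No MRL/lpr kidney overlapped Ctr, and Lpr 1 and Lpr 2 stood above the other 2 Lpr kidneys. It rose in DNase (1.76 ± 0.40, edgeR adjusted p = 0.0124), though not without Ctr 1 (1.71, adjusted p = 0.053). In Lpr the fold change was 2.46 ± 0.71 (edgeR adjusted p = 0.0651), and it passed without Lpr 3 (2.73, edgeR adjusted p = 0.024) or without Lpr 4 (2.72, adjusted p = 0.0468). Summed CPM of 10 macrophage markers lay between 186 and 260 in Ctr, 1152 and 2366 in Lpr and 886 and 1691 in DNase, and those of 10 neutrophil markers between 3.15 and 7.17, 8.96 and 35.5, and 7.92 and 19.1. Their part in the Mmp25 and Mmp12 values was not tested. Of the other membrane-anchored members, Mmp17 lay at 3.03 to 3.29 in Ctr and 3.34 to 5.45 in Lpr, Mmp15 at 5.04 to 9.38 and 3.77 to 6.63, and Mmp16 and Mmp24 had at most 14 and 7 reads in any kidney and were not tested.

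The gelatinases Mmp2 and Mmp9, which cut denatured collagens and basement membrane collagen, were not called. Mmp2 CPM were 17.7, 10.1 and 8.12 in Ctr 1 to 3, 12.2, 30.7, 31.7 and 16.0 in Lpr 1 to 4 and 18.6, 25.4, 16.0 and 15.4 in DNase 1 to 4. Ctr 1 lay among the MRL/lpr kidneys, and without it Mmp2 rose in DNase (1.05, edgeR adjusted p = 0.0166), against 0.66 ± 0.27 with all kidneys (adjusted p = 0.128). In Lpr the fold change was 0.92 ± 0.41 (edgeR adjusted p = 0.241). Mmp9 CPM were 5.47, 1.72 and 1.53 in Ctr, 2.00, 2.82, 2.77 and 2.73 in Lpr and 2.81, 3.42, 1.20 and 2.55 in DNase. Ctr 1 had the highest Mmp9 of all kidneys, and the fold change in Lpr of -0.18 ± 0.46 (edgeR adjusted p = 0.868) became 0.67 without it.

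**Figure D3:**
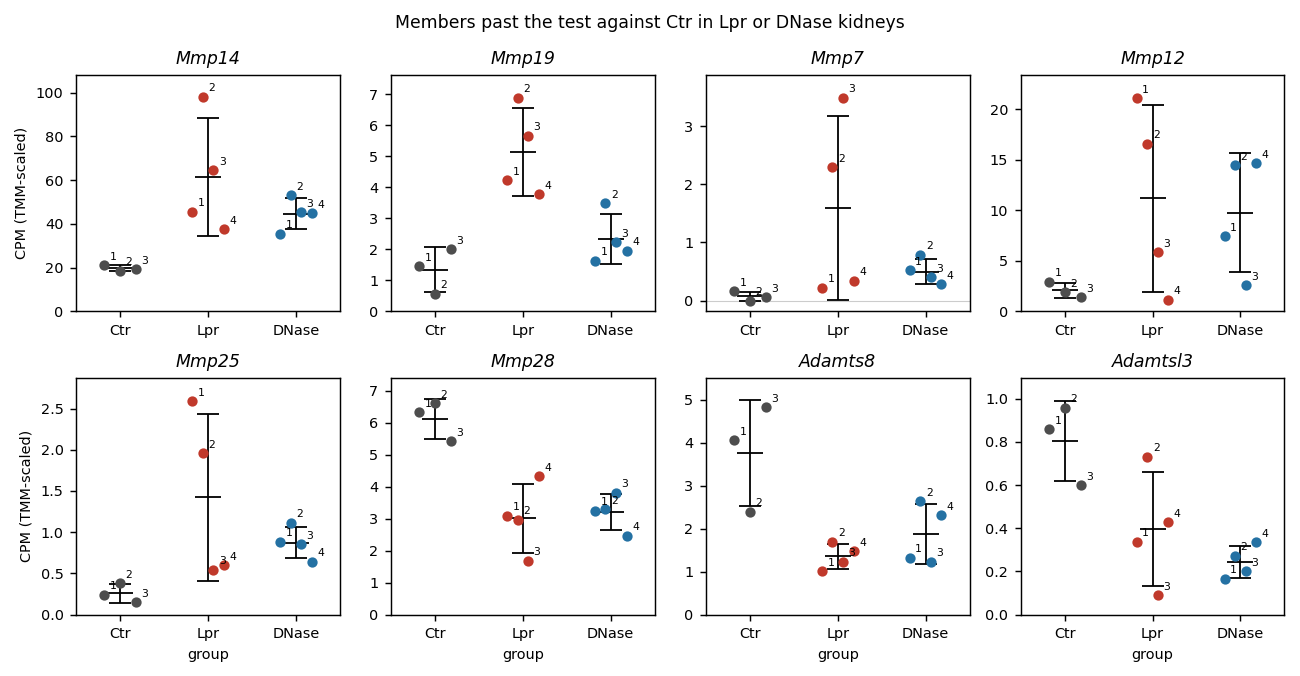
CPM by kidney of the 8 members that passed the test against Ctr in Lpr or in DNase, with kidneys numbered as in the labels, group means as horizontal marks and SD as bars. Mmp14 and Mmp25 lie above Ctr and Mmp28 below it in all 8 MRL/lpr kidneys, while Mmp7 and Mmp12 spread widely among the Lpr kidneys.

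In the chromosome 9 cluster, Mmp7 and Mmp12 passed the test in DNase and Mmp3 and Mmp13 did not. Mmp7, the matrilysin known from injured kidney tubules, had CPM of 0.161, 0 and 0.06 in Ctr 1 to 3, 0.225, 2.30, 3.49 and 0.341 in Lpr 1 to 4 and 0.524, 0.788, 0.402 and 0.283 in DNase 1 to 4. Every MRL/lpr kidney lay above Ctr, and Lpr 2 and Lpr 3 stood far above the rest. It rose in DNase (2.64 ± 0.73, edgeR adjusted p = 0.0298), but not without Ctr 2 (2.11), Ctr 3 (2.49) or DNase 2 (2.33), where the edgeR adjusted p was 0.0551, 0.0937 and 0.0717. In Lpr the estimate was larger and less certain at 4.31 ± 1.25 (edgeR adjusted p = 0.0681). Without Lpr 1 it passed (4.68, adjusted p = 0.0427), and without Lpr 2, Lpr 3 or Lpr 4 it did not pass the filter on low counts. Mmp7 is short, at 1115 bases, with only Timp1 shorter among the members, and short genes had higher values in Lpr 3. With an offset for gene length in each library, Mmp7 was called in DNase against Ctr and not in Lpr against Ctr. Lpr 2 and Lpr 3 also had the highest summed CPM of 6 injured tubule markers, 879 and 981, against 345 to 385 in the other Lpr kidneys, 276 to 348 in DNase and 156 to 264 in Ctr, and the part of these in Mmp7 was not tested.

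Mmp12, the elastase of macrophages, had CPM of 2.93, 1.88 and 1.41 in Ctr 1 to 3, 21.1, 16.6, 5.84 and 1.14 in Lpr 1 to 4 and 7.45, 14.5, 2.56 and 14.7 in DNase 1 to 4. Lpr 4 was the lowest of all 11 kidneys and DNase 3 lay within Ctr, while the other 6 MRL/lpr kidneys were above it. It rose in DNase (2.23 ± 0.56, edgeR adjusted p = 0.0199), with values of 2.16, 2.01, 1.98 and 1.97 and adjusted p between 0.0508 and 0.0706 when Ctr 2, Ctr 3, DNase 2 or DNase 4 was left out. In Lpr it was 2.43 ± 0.85 (edgeR adjusted p = 0.126), which, of the kidneys left out in turn, passed only without Lpr 4 (2.81, adjusted p = 0.0155). Lpr 4 had the lowest macrophage sum among the Lpr kidneys, 1152 CPM. DNase 3, the lowest DNase kidney in Mmp12, had the highest macrophage sum among the DNase kidneys, 1691. DNase 1, with Mmp12 at 7.45, had the lowest macrophage sum of all MRL/lpr kidneys, 886.

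Mmp13, the main fibrillar collagenase of rodents, had CPM of 5.96, 2.62 and 1.32 in Ctr 1 to 3, 7.34, 2.71, 3.22 and 1.59 in Lpr 1 to 4 and 2.15, 2.85, 0.527 and 0.849 in DNase 1 to 4. The 3 groups overlapped, with fold changes of 0.17 ± 0.62 in Lpr and -1.05 ± 0.62 in DNase against Ctr (edgeR adjusted p = 0.903 and 0.28). Mmp3, a stromelysin that also activates other MMPs, had CPM of 3.60, 0.511 and 0.749 in Ctr, 1.01, 2.30, 2.68 and 1.91 in Lpr and 1.38, 2.09, 2.44 and 1.44 in DNase. Ctr 1 was the highest of all 11 kidneys, and the other 2 Ctr kidneys lay below all 8 MRL/lpr kidneys. Without Ctr 1, Mmp3 rose in DNase (1.53, edgeR adjusted p = 0.0313), against 0.17 ± 0.60 with it (adjusted p = 0.873). The remaining 3 of the cluster were too low for the test. Mmp8, the collagenase of neutrophils, had 6, 1 and 4 reads in Ctr, 24, 19, 9 and 4 in Lpr and 5, 10, 8 and 7 in DNase. Mmp10 had 0, 28, 9 and 1 reads in Lpr 1 to 4, 0, 3, 0 and 3 in DNase and 0 in every Ctr kidney, and against a floor of 3 reads per library, which covers counting error only, its mean CPM in Lpr was at least 2.90-fold higher. That bound rests on Lpr 2 and was 1.12 without it, a value computed after the counts were seen. Mmp27 had 3, 22, 8 and 13 reads in Lpr and 5, 3, 3 and 12 in DNase, with 1 read in Ctr 2 and 0 in the others.

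Of the other MMPs, Mmp19 rose in Lpr and Mmp28 fell in DNase. Mmp19 (chr10:128790910-128800827), a secreted MMP of many tissues, had CPM of 1.45, 0.575 and 2.01 in Ctr 1 to 3, 4.22, 6.89, 5.66 and 3.78 in Lpr 1 to 4 and 1.63, 3.48, 2.23 and 1.96 in DNase 1 to 4. All 4 Lpr kidneys lay above all Ctr and all DNase kidneys, and DNase overlapped Ctr. The fold change was 1.93 ± 0.45 in Lpr (edgeR adjusted p = 0.0278) and 0.79 ± 0.42 in DNase against Ctr (adjusted p = 0.235). The first did not pass without Ctr 1 (1.99), Ctr 2 (1.57) or Lpr 2 (1.74), with edgeR adjusted p of 0.106, 0.0615 and 0.0699. DNase against Lpr was -1.14 ± 0.30, with the smallest unadjusted p of all members, and an edgeR adjusted p of 0.82.

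Mmp28 (epilysin, chr11:83440768-83463040) had CPM of 6.33, 6.61 and 5.43 in Ctr 1 to 3, 3.09, 2.97, 1.68 and 4.33 in Lpr 1 to 4 and 3.25, 3.29, 3.82 and 2.47 in DNase 1 to 4. All 8 MRL/lpr kidneys lay below all Ctr kidneys, and Lpr 3 was the lowest. The fold change was -0.93 ± 0.19 in DNase (edgeR adjusted p = 0.00665), a call that held without any 1 kidney, and -1.02 ± 0.32 in Lpr (adjusted p = 0.0918), which passed without Lpr 3 (-0.82, adjusted p = 0.0467). DNase and Lpr differed by 0.09 ± 0.30. Mmp11, the stromelysin that furin activates inside the cell, had CPM of 10.1, 6.10 and 7.82 in Ctr, 4.00, 6.71, 4.78 and 4.04 in Lpr and 8.33, 7.53, 5.50 and 5.22 in DNase. The groups overlapped, with -0.71 ± 0.28 in Lpr and -0.27 ± 0.23 in DNase against Ctr (edgeR adjusted p = 0.184 and 0.46). It had the smallest unadjusted p among members that were higher in DNase than in Lpr (0.45 ± 0.25, edgeR adjusted p = 0.854). Mmp23 lay between 4.87 and 11.6 CPM in all kidneys.

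**Figure D4:**
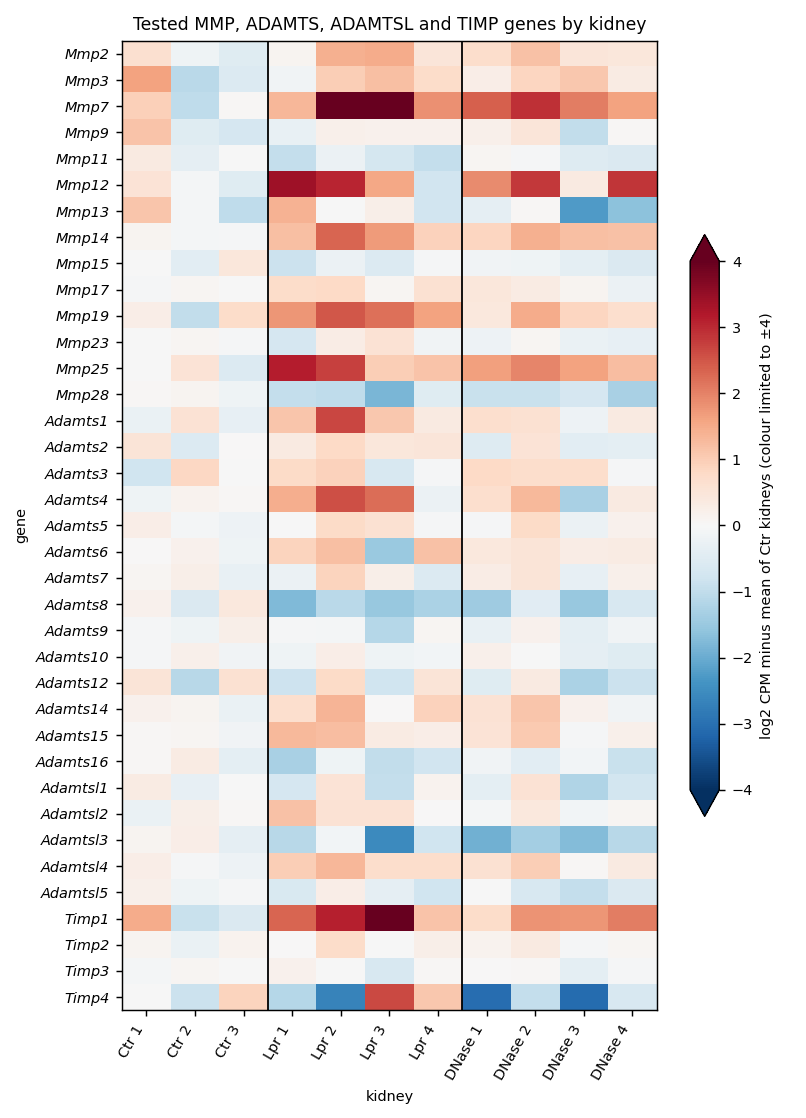
Log2 CPM of the 37 tested members (rows) in each kidney (columns) minus the mean of the Ctr kidneys, with colours limited to ±4 while values run from -3.09 (Timp4) to 4.99 (Mmp7). Lpr 2 has the highest value of all kidneys in 16 members, and the 4 DNase columns are paler than those of Lpr 1 to Lpr 3 in Timp1, Adamts1, Adamts4 and Mmp19. Lpr 4 differs from these, as it lies below DNase 1, DNase 2 and DNase 4 in Adamts1 and Adamts4 and below DNase 2 to DNase 4 in Timp1.

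The members that cut proteoglycans were Adamts1, Adamts4, Adamts5, Adamts8, Adamts9, Adamts15 and Adamts20. Of these only Adamts8 passed the main test, while DESeq2 also called Adamts1 and Adamts4 higher in Lpr against Ctr. Adamts8 CPM were 4.05, 2.39 and 4.83 in Ctr 1 to 3, 1.01, 1.70, 1.23 and 1.48 in Lpr 1 to 4 and 1.32, 2.64, 1.23 and 2.32 in DNase 1 to 4. The Lpr kidneys all lay below Ctr, and DNase 2 lay above Ctr 2. It fell in Lpr by 1.47 on the log2 scale (SE 0.34, edgeR adjusted p = 0.0271) and was -1.0 ± 0.34 in DNase against Ctr (adjusted p = 0.0685). The Lpr call did not hold without Ctr 1 (-1.41), Ctr 3 (-1.25), Lpr 1 (-1.35) or Lpr 4 (-1.50), with edgeR adjusted p between 0.0558 and 0.129, and the DNase value passed without Ctr 2 (-1.24, adjusted p = 0.0294). DNase against Lpr was 0.47 ± 0.33 (edgeR adjusted p = 0.854). Adamts8 lies 20.1 kb from Adamts15 on chromosome 9. Adamts15 lay on the other side of Ctr, at 8.48, 8.71 and 7.46 CPM in Ctr, 20.2, 19.3, 10.4 and 9.87 in Lpr and 11.9, 17.1, 7.98 and 9.52 in DNase. Every Lpr kidney was above Ctr in Adamts15 (0.87 ± 0.31, edgeR adjusted p = 0.131), and it passed without Lpr 3 (1.01, adjusted p = 0.0398).

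Adamts1 had CPM of 30.2, 55.1 and 29.3 in Ctr 1 to 3, 78.8, 233, 77.1 and 46.4 in Lpr 1 to 4 and 58.1, 55.6, 31.7 and 46.9 in DNase 1 to 4. Lpr 2 alone was over 200, and Lpr 4 lay within Ctr. The fold change in Lpr was 1.52 ± 0.55 (edgeR adjusted p = 0.137) and 0.81 without Lpr 2, and DNase against Lpr was -1.17 ± 0.45 (edgeR adjusted p = 0.85) and -0.49 without Lpr 2. Adamts4 was likewise highest in Lpr 2 and lowest, among the Lpr kidneys, in Lpr 4, at 2.87, 6.26, 4.99 and 0.854 CPM, with 0.886, 1.12 and 1.05 in Ctr and 1.66, 2.55, 0.377 and 1.31 in DNase. Its fold change in Lpr was 1.89 ± 0.61 (edgeR adjusted p = 0.1), and without Lpr 4, the 1 Lpr kidney under Ctr, it passed (2.22, adjusted p = 0.0118). Adamts5, 55.0 kb from Adamts1 on chromosome 16, varied less, at 20.5, 16.1 and 14.6 CPM in Ctr, 16.6, 28.7, 25.9 and 16.5 in Lpr and 16.3, 28.6, 14.5 and 19.1 in DNase, with 0.36 ± 0.26 in Lpr and 0.20 ± 0.23 in DNase against Ctr (edgeR adjusted p = 0.489 and 0.592).

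The 3 procollagen N-propeptidases, Adamts2, Adamts3 and Adamts14, had fold changes in Lpr between 0.27 and 0.84 and none was called. Adamts2 ran from 5.81 to 12.0 CPM in Ctr, 10.8 to 14.8 in Lpr and 5.90 to 12.3 in DNase, and its DNase against Lpr value was -0.66 ± 0.25 (edgeR adjusted p = 0.851). The other ADAMTS genes did not pass either. Among them Adamts6, a long gene of 8364 bases, was lowest in Lpr 3. It had 3.25, 3.64 and 2.85 CPM in Ctr, 6.08, 7.57, 1.11 and 7.28 in Lpr and 4.33, 4.59, 3.97 and 4.06 in DNase, so that 3 Lpr kidneys lay above all DNase kidneys and Lpr 3 below all others. With Lpr 3 the fold change was 0.77 ± 0.55 (edgeR adjusted p = 0.496), and without it Adamts6 rose by 1.11 (adjusted p = 0.00925). Adamts16 had CPM of 2.55, 3.16 and 1.89 in Ctr, 0.985, 2.22, 1.23 and 1.45 in Lpr and 2.26, 1.82, 2.31 and 1.31 in DNase. The groups overlapped, at -0.77 ± 0.36 in Lpr and -0.39 ± 0.28 in DNase against Ctr (edgeR adjusted p = 0.27 and 0.372) and 0.39 ± 0.32 in DNase against Lpr (adjusted p = 0.854). Adamts7, Adamts9, Adamts10 and Adamts12 had fold changes between -0.64 and 0.20 in the 2 comparisons with Ctr. Adamts13, which cuts von Willebrand factor and is made mainly outside the kidney, had 0, 0 and 1 reads in Ctr, 2, 11, 1 and 0 in Lpr and 4, 9, 2 and 5 in DNase and was not tested, nor were Adamts17 with at most 8 reads in a kidney and Adamts20 with at most 8.

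Among the 5 ADAMTS-like genes only Adamtsl3 passed the main test, while DESeq2 also called Adamtsl4 higher in Lpr against Ctr. Adamtsl3 (chr7:82335399-82614450) had CPM of 0.859, 0.958 and 0.60 in Ctr 1 to 3, 0.338, 0.731, 0.0903 and 0.427 in Lpr 1 to 4 and 0.166, 0.272, 0.201 and 0.334 in DNase 1 to 4. All DNase kidneys lay below all Ctr kidneys, and among Lpr kidneys Lpr 2 lay within Ctr and Lpr 3 was lowest of all. It fell in DNase by 1.71 on the log2 scale (SE 0.37, edgeR adjusted p = 0.00931), also without any 1 kidney, and was -1.0 ± 0.58 in Lpr (adjusted p = 0.387). Adamtsl3 is a long gene of 7629 bases, and long genes had lower values in Lpr 3. It was not called in Lpr without Lpr 3 or with an offset for gene length in each library. Adamtsl4 and Adamtsl2, which bind fibrillin microfibrils, were higher in Lpr by 0.96 ± 0.27 and 0.63 ± 0.28 (edgeR adjusted p = 0.0626 and 0.234), and Adamtsl1 and Adamtsl5 were at -0.13 and -0.33. All 5 had a lower value in DNase than in Lpr, between -0.70 and -0.17, and none of these was called.

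None of the 4 TIMP genes was called in the main test. In Lpr against Ctr, Timp1 was called higher with DESeq2, in 1 fit over all libraries and with the replicate number as a block. Timp1, the TIMP that cytokines induce, had CPM of 3.09, 0.543 and 0.69 in Ctr 1 to 3, 5.51, 9.52, 33.9 and 2.42 in Lpr 1 to 4 and 1.82, 3.86, 3.72 and 4.58 in DNase 1 to 4. Lpr 3 was over 3 times the next kidney, and Ctr 1 lay above Lpr 4 and DNase 1. The fold change was 3.14 ± 1.01 in Lpr (edgeR adjusted p = 0.0969) and 1.26 ± 0.58 in DNase against Ctr (adjusted p = 0.164). Timp1 has the shortest length of the members, 890 bases, and Lpr 3 is the library in which short genes had higher values. With an offset for gene length in each library, Timp1 was 2.5 ± 0.77 in Lpr against Ctr (edgeR adjusted p = 0.0624) and -1.38 ± 0.51 in DNase against Lpr (adjusted p = 0.592). Without Lpr 3 the Lpr value was 2.01 (edgeR adjusted p = 0.114) and DNase against Lpr changed from -1.87 ± 0.70 to -0.74 (adjusted p = 0.85 and 0.596). Without Ctr 1, Timp1 rose in DNase (2.49, edgeR adjusted p = 0.00592).

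Timp3 CPM were 1978, 2219 and 2084 in Ctr, 2335, 2081, 1346 and 2157 in Lpr and 2134, 2151, 1601 and 2034 in DNase. Lpr 3 and DNase 3 were lowest and the rest overlapped, with fold changes of -0.08 ± 0.22 in Lpr and -0.08 ± 0.12 in DNase against Ctr (edgeR adjusted p = 0.877 and 0.708). Timp2, which takes part in the activation of the Mmp2 proenzyme by Mmp14, lay at 109, 84.6 and 112 CPM in Ctr, 102, 169, 101 and 118 in Lpr and 113, 130, 97.2 and 107 in DNase. Lpr 2 was its highest kidney, and its fold changes were 0.27 ± 0.23 and 0.14 ± 0.13 (edgeR adjusted p = 0.564 and 0.509).

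Timp4, known from heart and fat, had CPM of 0.617, 0.319 and 1.23 in Ctr 1 to 3, 0.253, 0.0522, 4.24 and 1.39 in Lpr 1 to 4 and 0.0276, 0.299, 0.0251 and 0.386 in DNase 1 to 4. Its 4 highest kidneys, Lpr 3, Lpr 4, Ctr 3 and Ctr 1, were the 4 with the highest summed CPM of 5 adipose markers, 978, 511, 796 and 344, against 180 or less in the other 7. The part of fat in these values was not tested. Timp4 was 1.02 ± 1.14 in Lpr against Ctr (edgeR adjusted p = 0.671) and -0.35 without Lpr 3, and it was -1.95 ± 0.79 in DNase against Ctr (adjusted p = 0.117). DNase against Lpr gave -2.98 ± 1.20 (edgeR adjusted p = 0.854), and -1.59 without Lpr 3 (adjusted p = 0.627).

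**Figure D5:**
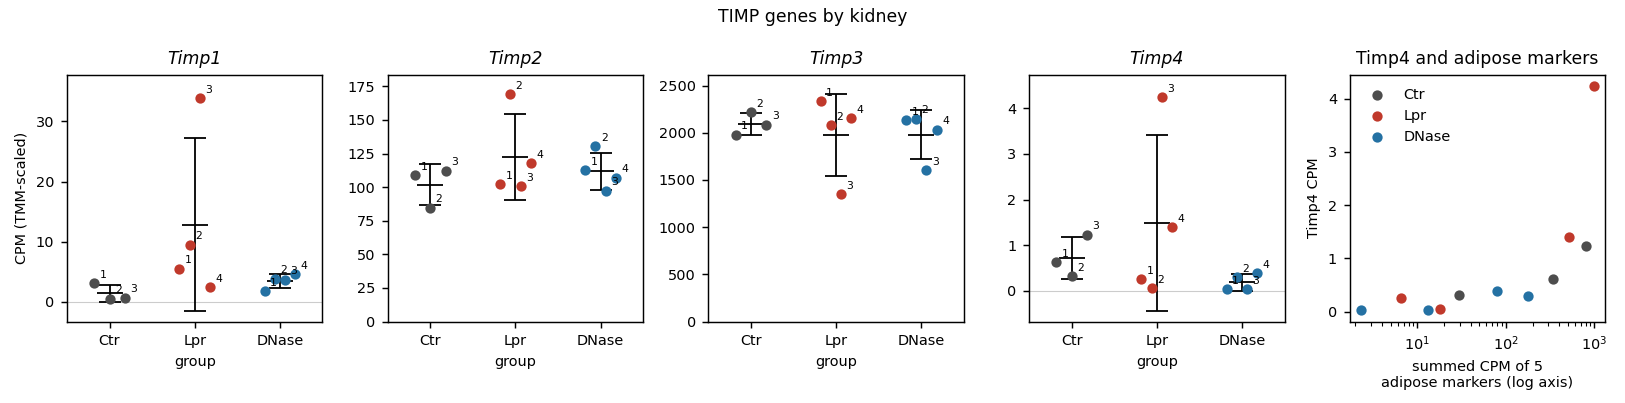
CPM of the 4 TIMP genes by kidney, with group means and SD, and on the right Timp4 CPM against the summed CPM of 5 adipose markers on a log axis. Timp1 and Timp4 peak in Lpr 3, Timp3 is lowest there, and the 4 kidneys with an adipose sum above 300 have the highest Timp4.

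The members did not spread evenly over the kidneys. Lpr 2 was the highest of all 11 kidneys in 16 of 37 members, where it was highest in 14.1% of all genes. Lpr 2 and Lpr 3 were the highest pair in 7 (Mmp2, Mmp7, Mmp14, Mmp19, Mmp23, Adamts4 and Timp1), against 6.44% of all genes. DNase 3 was the lowest of all in 8 members, against 4.5% of all genes, Ctr 2 in 7 (13%) and Ctr 3 in 6 (8.38%). Lpr 3 was the highest in 5 members and the lowest in 5, against 28.3% and 29.3% of all genes. The DNase kidneys were the highest in 0 or 1 member each, where they were highest in 2.74% to 6.75% of all genes.

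Other genes of the pathway were counted from fixed lists, beside shares of 7.27% higher and 2.92% lower over all genes in Lpr against Ctr and of 13.1% and 8.61% in DNase against Ctr. Of 12 tested activators of the proenzymes or of their activators, 0 rose and 0 fell in Lpr against Ctr, and in DNase against Ctr Tpsb2, a mast cell tryptase, rose (1.98 ± 0.34, edgeR adjusted p = 0.00291) and Furin (-0.42 ± 0.08) and Plaur (-0.60 ± 0.16) fell. Of 12 inhibitors outside the TIMPs, in Lpr Pzp, an alpha-macroglobulin (3.13 ± 0.54), and Serpine2, an inhibitor of serine proteases (1.23 ± 0.27), rose, while Reck, a membrane inhibitor of MMPs (-0.78 ± 0.21), and Spock3, a testican (-3.39 ± 0.55), fell. Their edgeR adjusted p lay between 0.00527 and 0.0455. In DNase against Ctr these 4 passed in the same directions. Of 34 matrix substrates, 0 rose and Comp fell in Lpr (-1.48 ± 0.34, edgeR adjusted p = 0.028). In DNase against Ctr 0 of 33 rose, and Comp, Col5a2 and Col4a5 fell.

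Of 18 related metalloproteinases, 5 rose in Lpr and 0 fell, beside the same 7.27% and 2.92% of all genes. They were Adamdec1 (3.95 ± 0.77), Adam8 (3.84 ± 0.72), Pappa2 (3.68 ± 0.74), Adam19 and Adam17, with edgeR adjusted p between 0.0105 and 0.0266. In DNase against Ctr the 5 passed again, Tll1 rose and Mep1b, a meprin of the tubule brush border, fell. The median log2 fold change in Lpr was -0.08 for activators, 0.65 for inhibitors, 0.17 for substrates and 0.45 for related metalloproteinases, beside 0.03 over all genes. In DNase against Lpr edgeR called 0 genes of the 4 lists.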

How the data were processed

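RNA from 11 whole kidneys was sequenced, 1 library per mouse. The authors trimmed reads with fastp, used the genome build mm10, which is GRCm38, and counted reads per gene with HTSeq, as the methods and the submitters' processing notes say. The deposited table gave raw counts per gene and sample, and the deposited FPKM are the same reads scaled by the authors for gene length and library size. All sample columns were matched by name and 0 were unused. Whether counting used the strand is not given in the sources used here.

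Groups came from the labels. Each pair of groups was fitted on its own libraries over all genes with edgeR 4.0.16 in R 4.3.3 (filterByExpr, TMM, quasi-likelihood test, two-sided), with Benjamini-Hochberg adjustment over all genes tested and a threshold of 0.05. The SE was the log2 fold change divided by the square root of F. No library pair in a group agreed within sampling noise. P-values set the difference between groups against the spread between mice. Counts of 33469858 to 38460873 per library limit the lowest genes.

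Members, gene lists and tests were chosen with earlier results of these data known. Values by kidney are given for the TIMPs, for Mmp2, Mmp3, Mmp7, Mmp8, Mmp9, Mmp10, Mmp12, Mmp13, Mmp14, Adamts1, Adamts4, Adamts5 and Adamts13, for every member with an adjusted p under 0.05, and for the 3 with the smallest p in each direction in DNase against Lpr. From the pathway lists, up to 3 called genes per direction with the largest change in Lpr were to be named, and the others named were added after their values were seen. Of these lists, 1 result is not reported here. Alternatives were DESeq2 size factors, DESeq2 1.42.0, no count filter, 1 fit over all libraries, a robust fit, the replicate number as a block, a gene length offset, limma 3.58.1 on log2(FPKM + 1) or log2(FPKM + 0.1) for a mean FPKM of at least 0.5 or without that filter, the study's limit on fold change, and each kidney left out. The fit was tested on simulated counts with 200 changed genes. A log2 change of 1 was recovered in 0% of them in Lpr against Ctr, 67% in DNase against Ctr and 18% in DNase against Lpr. For a log2 change of 2 these shares were 73%, 89.5% and 87.5%. Upstream sequences were from RefSeq tables, and exons from GENCODE vM21.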

Additional observations from a re-analysis of the deposited data

Results flagged for a closer look

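In 90 groups of 4 kidneys (the Lpr and the DNase kidneys for each of the 45 members), 4 kidneys stood far from the other 3 by Dixon's test at 95%, which chance alone gives in about 1 in 20 groups, so that 4.44% is near what chance gives. Mmp9, a gelatinase, was low in Lpr 1 at 2.00 CPM, against 2.73 to 2.82 in the others. Adamts2, a procollagen N-propeptidase, was high in DNase 2 at 12.3 CPM, against 5.90 to 6.48. Adamts3, of the same kind, was low in DNase 4 at 0.617 CPM, against 1.08 to 1.16. Adamts10 was high in Lpr 2 at 14.2 CPM, against 10.4 to 10.9.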

How the results depend on the processing

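Members called in Lpr against Ctr numbered 3, and 0 with the limit on fold change added in edgeR. They numbered 13 with DESeq2, 9 in 1 fit over all libraries and 1 with limma on FPKM without a filter (4.89% of genes). With 1 kidney left out they numbered 0 to 9, where 5.2% to 17.8% of all genes were called. In DNase against Ctr they numbered 6, and 2 with the limit on fold change added in edgeR. They numbered 1 in 1 fit over all libraries and 3 with limma at either pseudocount (22.8% and 22.7% of genes). With 1 kidney left out they numbered 4 to 8, where 16.5% to 21.5% of all genes were called. In DNase against Lpr they numbered 0 under every alternative run. The share of members called, against that of all genes, was 8.11% against 10.2% in Lpr against Ctr, but 28.9% against 13.1% with DESeq2 and 22.5% against 15.5% in 1 fit, and in DNase against Ctr it was 16.2% against 21.7% and 2.5% against 11.4% in 1 fit. Members with an unadjusted p under 0.05 in DNase against Lpr numbered 5, and 1 to 10 over the alternatives. The causes were not tested.

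The labels do not say that kidneys with the same replicate number were paired. Their deviations correlated at -0.277 to 0.159, and those of kidneys with different numbers at -0.29 to 0.368. These ranges overlap, so they cannot show whether kidneys with the same number shared a batch. With the number as a block, called members were 7 in Lpr against Ctr (18.9% against 7.89% of genes) and 2 in DNase against Ctr (5.41% against 11.6%), and in Lpr against Ctr Timp4 was -0.31 and Mmp9 0.0566, each with its sign turned.

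Of the log2 fold changes of the genes given in full, 950 values kept direction and side of the threshold, 33 lost the call, 29 gained it and 43 turned sign, none of them a called value. With a gene length offset Mmp3 was -0.000458 and Mmp13 -0.0187 in Lpr against Ctr, and Mmp3 was 0.0414 and Timp3 -0.0161 in DNase against Lpr. With limma on log2(FPKM + 0.1), Mmp9 was 0.069 in Lpr and 0.0183 in DNase against Ctr, Mmp12 was 0.20 in DNase against Lpr, and Timp3 was 0.00907 in DNase against Ctr. With log2(FPKM + 1), with or without the filter, Mmp12 was 0.0379 and Timp3 0.00907 in the same comparisons. In DNase against Lpr, Timp3 was -0.00324 with DESeq2 size factors, -0.00291 with DESeq2 and -1.87e-06 in 1 fit over all libraries.

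With 1 kidney left out, Lpr against Ctr ran from -0.39 to 0.92 for Mmp13, -0.14 to 1.64 for Mmp3, -0.48 to 0.67 for Mmp9, -0.16 to 0.0701 for Timp3 and -0.35 to 1.65 for Timp4. DNase against Ctr ran from -0.0376 to 0.35 for Adamts5, -0.25 to 1.53 for Mmp3, -0.54 to 0.61 for Mmp9 and -0.12 to 0.0115 for Timp3. DNase against Lpr ran from -0.57 to 0.32 for Mmp12, -0.11 to 0.32 for Mmp28, -0.31 to 0.0799 for Mmp3, -0.22 to 0.19 for Mmp9, -0.22 to 0.0634 for Timp2 and -0.15 to 0.10 for Timp3. Depth left 8 members untested.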
